A study of Mus musculus with 8 samples.

Results

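The genes described here encode the 3 mouse Aurora kinases (Aurka, Aurkb and Aurkc), the 3 other subunits of the chromosomal passenger complex (Incenp, Birc5 and Cdca8), and 2 partners of Aurora A at mitotic entry and on the spindle (Plk1 and Tpx2). They were chosen by gene symbol, and the symbols were matched to the gene names in the deposited tables. All 8 were found, among 48440 genes, with 37 of the 117667 transcripts listed. All 8 were also among the 25045 genes with enough counts to be tested.

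Aurora kinases are serine/threonine kinases of cell division. Aurora A sits at centrosomes and spindle poles, where the spindle protein Tpx2 binds and activates it, and it phosphorylates the activation loop of the Polo-like kinase Plk1. Aurora B is the enzyme of the chromosomal passenger complex, which corrects faulty attachments of chromosomes to microtubules and later moves to the central spindle for cytokinesis. In that complex Incenp is the scaffold that binds and activates the kinase, and survivin (the Birc5 product) and borealin (the Cdca8 product) bind the other end of Incenp and dock it on centromeres. Aurora C can take the place of Aurora B in the complex and is best known from germ cells, where it works in the meiotic divisions. Oocytes stop transcription when fully grown and divide on stored mRNA, whereas embryonic stem cells divide mitotically and transcribe actively.

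RNA was sequenced from 8 mouse libraries in 4 groups of 2. GV oocytes are arrested in meiotic prophase with an intact nucleus, the germinal vesicle. They came from mice given 5 units of PMSG, a hormone that makes follicles grow, 48 h ahead of an unnamed injection, and they were held in 2 µM milrinone, which blocks meiotic resumption. MII oocytes are arrested at the second meiotic metaphase, although their label carries the same protocol as the GV label, with no maturation step. Embryonic stem cells (ESC) grew in 15% serum with LIF, PD0325901 (a MEK inhibitor) and CHIR99021 (a GSK3 inhibitor). In vitro epiblast cells (EpiC) were ESC left without LIF and inhibitors after 24 h of plating and taken about 56 h later. The labels give no strain, age or genotype, and do not say how many oocytes were pooled or whether the replicates had separate origins. Each p-value therefore covers the spread between these libraries, which may be technical.

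Total estimated counts ran from 47463546 to 196788239 per library, and replicate 2 was the deeper library in each of the 4 groups. The 10 oocyte markers summed to between 24549 and 34576 TPM (a relative level per transcript length) in the oocyte libraries and to between 4.72 and 70.5 TPM in the cultured cells. Nanog measured 954 and 814 TPM in ESC and at most 0.0161 TPM in oocytes, and Fgf5 55.3 and 18.9 TPM in EpiC and at most 0.1 TPM in ESC. Their lists separated the groups less cleanly. The 10 pluripotency markers summed to 4417 and 3104 TPM in ESC and to between 369 and 734 TPM in oocytes, mostly Pou5f1. The 7 formative epiblast markers summed to 804 and 224 TPM in EpiC and 73.2 and 46.5 TPM in ESC. In oocytes they summed to between 147 and 228 TPM, with Dnmt3a at 125 and 136 TPM in GV and Lef1 at 112 and 188 TPM in MII. Markers of cumulus and granulosa cells, which surround oocytes, summed to 69.5 and 183 TPM in GV and 62.2 and 72.9 TPM in MII, with Foxl2 at most 0.244 TPM in oocytes and Inha at 4.66 and 104 TPM in GV. Inhba (0.446 and 12.45 TPM), Fshr (0.934 and 4.175 TPM) and Amh (0.634 and 3.19 TPM) were also higher in GV replicate 2. Cyp19a1 (23.4 and 18.3 TPM) and Nr5a2 (37.0 and 31.9 TPM) were not. Most of the MII sum was Cyp19a1, at 47.4 and 44.5 TPM. Markers of fibroblasts summed to 147 and 64.1 TPM in EpiC, almost all of it Tagln, and to at most 4.11 TPM elsewhere. In bulk RNA, fewer cells of a type and less RNA per cell cannot be told apart.

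Aurkc was the Aurora kinase with the highest level in every oocyte library and the one with the lowest level in every cultured library. Aurkc (ENSMUSG00000070837.5, chromosome 7 from 6995300 to 7003091 on the plus strand of GRCm38) measured 350 and 419 TPM in GV, 928 and 927 TPM in MII, 11.8 and 8.31 TPM in ESC and 1.61 and 1.23 TPM in EpiC. The order was MII, GV, ESC and EpiC, and no neighbouring groups in it overlapped. Among 21989 genes with a coding transcript, it ranked 122 and 113 in MII and 11541 and 12089 in EpiC. The EpiC values rest on estimated counts of 65.1 and 127 reads.

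Aurkb (ENSMUSG00000020897.12, chromosome 11 from 69045647 to 69051664, plus strand) ran the other way. It measured 11.95 and 17.4 TPM in GV, 3.31 and 10.2 TPM in MII, 79.9 and 74.8 TPM in ESC and 77.5 and 50.7 TPM in EpiC. The 4 cultured libraries lay above the 4 oocyte libraries, and ESC and EpiC overlapped. GV lay above MII in TPM, with 11.95 and 10.2 TPM as the nearest libraries.

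Aurka (ENSMUSG00000027496.15, chromosome 2 from 172356190 to 172370535, minus strand) was abundant in all 8 libraries. It measured 247 and 352 TPM in GV, 127 and 181 TPM in MII, 135 and 102 TPM in ESC and 109 and 84.3 TPM in EpiC. GV stood above every other library, while MII overlapped ESC and ESC overlapped EpiC.

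**Figure D1:**
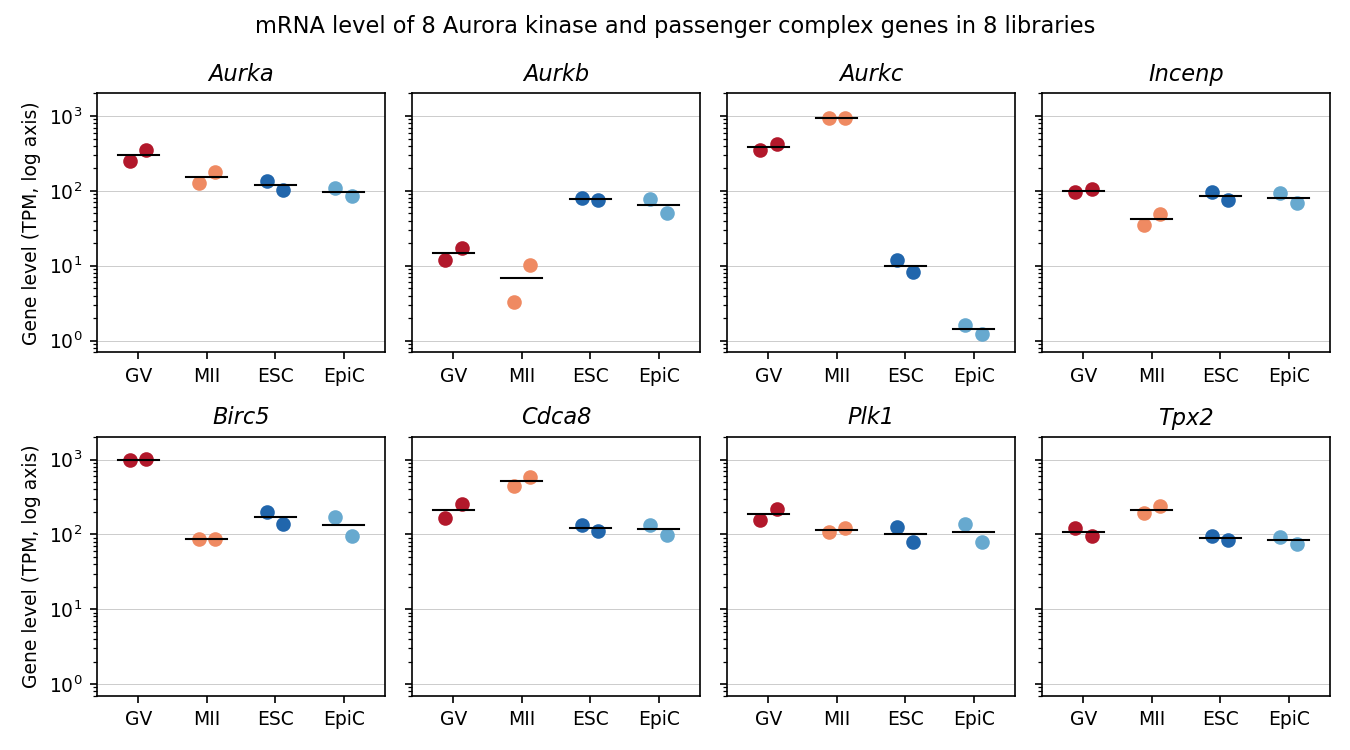
Level of each of the 8 genes in TPM on a log axis, with 1 point per library, 2 libraries in each of the 4 groups and a line at their mean. Aurkc runs from 1.23 TPM in EpiC to 928 TPM in MII, Aurkb is lowest in the oocytes, and Birc5 is highest in GV.

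The make-up of the Aurora kinase mRNA pool is a share within a library, so it does not depend on how libraries are scaled. Aurkc made up 57.4% and 53.2% of the summed TPM of the 3 kinases in GV and 87.7% and 82.9% of it in MII. Its share was 5.18% and 4.50% in ESC and 0.854% and 0.906% in EpiC. Aurkb made up 1.96% and 2.21% of the sum in GV and 0.313% and 0.916% of it in MII, against 35.2% and 40.5% in ESC and 41.2% and 37.2% in EpiC. Aurka supplied the rest, from 12.02% in an MII library to 61.9% in an EpiC library. The Aurkc share of the pool was higher in both MII libraries than in both GV libraries and was lower in both EpiC libraries than in both ESC libraries, and with protein-coding transcripts alone the 4 groups kept that order. The shares are given as a description, with no test: an exact permutation test of 2 libraries against 2 gives a two-sided p of at least 0.333.

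**Figure D2:**
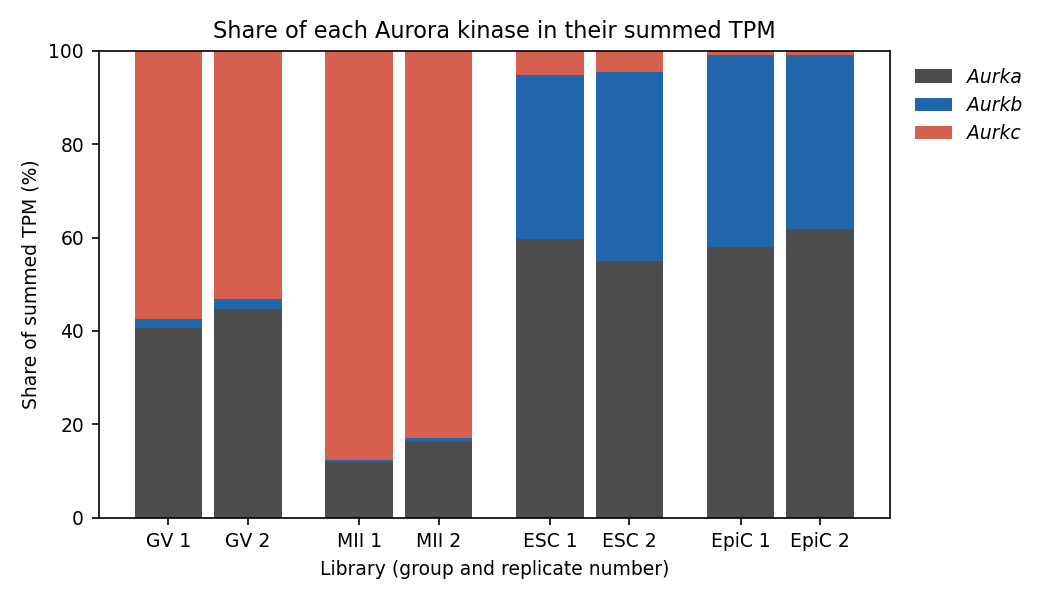
Share of each Aurora kinase in their summed TPM, in percent, as 1 stacked bar from 0 to 100 per library. Aurkc fills 82.9% or more of the bar in MII and at most 5.18% in the cultured libraries, where Aurka and Aurkb fill the rest.

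The bases before the first exon of Aurkc and of Aurka are shown because Aurkc differed most between oocytes and cultured cells and Aurka was abundant in both. They come from RefSeq promoter windows on GRCm38.p6, 250 bases before to 50 bases after each start, used for 4 of the 8 genes (Aurka, Aurkc, Birc5 and Plk1). Capitals mark CCAAT, the letters bound by NF-Y, and TTTGAA, the cell cycle genes homology region (CHR), a motif of genes expressed in late cell cycle. Both strands were searched, so that CCAAT also counts where the gene strand reads ATTGG. For TTTGAA the letters of the other strand are TTCAAA. The Aurkc run stops just before the first base of its GENCODE gene, 165 bases long at chr7:6995135-6995299 on the plus strand, and the Aurka run is 250 bases long at chr2:172370571-172370820 on the minus strand.
Aurkc: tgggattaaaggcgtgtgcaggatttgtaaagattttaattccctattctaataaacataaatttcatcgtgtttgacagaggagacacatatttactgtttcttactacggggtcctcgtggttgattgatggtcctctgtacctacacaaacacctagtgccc
Aurka: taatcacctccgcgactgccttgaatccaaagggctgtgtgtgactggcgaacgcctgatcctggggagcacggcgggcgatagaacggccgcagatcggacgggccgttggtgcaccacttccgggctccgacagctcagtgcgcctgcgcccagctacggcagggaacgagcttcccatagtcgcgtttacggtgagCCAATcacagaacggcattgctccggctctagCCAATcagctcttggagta

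TTTGAA lay just after the RefSeq start of 2 of the 4 genes, at base 33 of Aurka and 31 of Plk1. In Aurka the GENCODE gene starts further in, at base 172370535, which falls within TTTGAA. These are the 30 bases around it, at chr2:172370521-172370550 (minus strand) and chr7:122159453-122159482 (plus strand).
Aurka: aaaaggagaaccTTTGAAttgtaacggctg
Plk1: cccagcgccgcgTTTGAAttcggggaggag
Among 32851 windows of 300 bases from 27025 genes, 17.9% held TTTGAA, 37.4% held CCAAT and 6.95% held both. CCAAT was in 3 of the 4 windows, those of Aurka, Aurkc and Plk1, and in Aurkc it lay on the opposite strand at base 25 after the RefSeq start, outside the run shown. The Birc5 window held neither motif.

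The other passenger subunits differed from each other in where they were high. Incenp (ENSMUSG00000024660.8, chromosome 19 from 9872296 to 9899551, minus strand), the scaffold, measured 95.2 and 106 TPM in GV, 35.5 and 48.9 TPM in MII, 96.5 and 75.4 TPM in ESC and 92.9 and 69.7 TPM in EpiC. In TPM the MII libraries stood apart, below the other 6, and ESC and EpiC overlapped. Birc5 (ENSMUSG00000017716.15, chromosome 11 from 117849251 to 117855743, plus strand), survivin, measured 971 and 1019 TPM in GV, 86.1 and 86.9 TPM in MII, 199 and 139 TPM in ESC and 170 and 94.7 TPM in EpiC. GV lay far above all other libraries, MII below all other libraries, and ESC and EpiC overlapped. By rank among coding genes Birc5 was at 102 and 84 in GV and at 1605 and 1549 in MII. Cdca8 (ENSMUSG00000028873.16, chromosome 4 from 124918465 to 124939311, minus strand), borealin, measured 167 and 254 TPM in GV, 446 and 584 TPM in MII, 132 and 110 TPM in ESC and 134 and 99.2 TPM in EpiC. MII was above GV and GV above the cultured cells, whose groups overlapped. With protein-coding transcripts alone, Cdca8 measured 109 and 166 TPM in GV, 309 and 372 TPM in MII, 105 and 85.2 TPM in ESC and 116 and 76.6 TPM in EpiC. On that measure GV overlapped EpiC and lay close to ESC, while MII stayed above GV. The tests below use all transcripts of the gene.

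Plk1 and Tpx2 differed from each other. Plk1 (ENSMUSG00000030867.7, chromosome 7 from 122159439 to 122169873, plus strand) measured 156 and 219 TPM in GV, 109 and 121 TPM in MII, 124 and 78.3 TPM in ESC and 136 and 78.5 TPM in EpiC. GV stood above the other groups, which overlapped. Tpx2 (ENSMUSG00000027469.16, chromosome 2 from 152847964 to 152895321, plus strand) measured 122 and 95.7 TPM in GV, 190 and 237 TPM in MII, 96.1 and 83.6 TPM in ESC and 91.3 and 74.4 TPM in EpiC. MII stood above the other groups, and GV and ESC overlapped, as did ESC and EpiC.

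Because the 3 subunits and the kinases are partners, their ratios within a library are of interest and also need no scaling. Cdca8 over Incenp was 1.76 and 2.39 in GV, 12.6 and 11.9 in MII and between 1.37 and 1.45 in the 4 cultured libraries. This ratio counts all Cdca8 transcripts, noncoding ones included. With protein-coding transcripts alone, Cdca8 was 109 TPM in GV replicate 1 and 116 TPM in EpiC replicate 1. Incenp was 95.2 and 92.9 TPM there, so GV overlapped the cultured cells on that measure, while MII stayed above both. Birc5 over Incenp was 10.2 and 9.61 in GV and 2.42 and 1.78 in MII, against 2.06 and 1.84 in ESC and 1.83 and 1.36 in EpiC. Aurka over Tpx2 was 2.02 and 3.67 in GV and 0.669 and 0.764 in MII, against 1.41 and 1.22 in ESC and 1.20 and 1.13 in EpiC. Both MII libraries lay outside the GV range in each of these ratios, and also in Aurkc over Aurkb and Aurka over Aurkc. They lay on both sides of it in Aurka over Aurkb, at 38.4 and 17.67 in MII against 20.7 and 20.15 in GV. The share of other gene pairs that separate the 2 stages was not counted.

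The MII against GV comparison asks how the level of these mRNAs, relative to the other RNA of a library, differs between the 2 oocyte stages. A rise or fall here is a relative one on either scale, and the amount of mRNA per oocyte was not measured. Of the 8 genes, 3 were higher in MII and 1 was lower, where 17.4% of all 25045 genes were called higher and 22.2% lower. Aurkc rose, with a log2 fold change of 2.43 ± 0.35 (SE, edgeR quasi-likelihood test with Benjamini-Hochberg adjustment, adjusted p = 0.000806), on counts scaled between libraries by TMM (trimmed mean of M-values). Cdca8 rose with 2.46 ± 0.38 (adjusted p = 0.00108) and Tpx2 with 2.10 ± 0.34 (adjusted p = 0.00131). These are TMM-scaled folds of 5.38 for Aurkc, 5.49 for Cdca8 and 4.30 for Tpx2, whereas the ratios of mean TPM were smaller, at 2.41, 2.45 and 1.96. Birc5 fell by 2.36 on the log2 scale, with SE 0.33 (adjusted p = 0.000705), and the ratio of its mean TPM was 11.5-fold lower. These 4 calls held in all 17 alternatives.

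The other 4 genes did not pass the test: Aurka at 0.20 (adjusted p = 0.701), Aurkb at 0.01 (1), Incenp at −0.09 (0.875) and Plk1 at 0.38 (0.446). Scaling decides how these 4 read, because the ratio of mean TPM in MII to GV was 0.515 for Aurka, 0.461 for Aurkb, 0.420 for Incenp and 0.613 for Plk1, all below 1. In limma on log2(TPM + 1), Aurka, Aurkb and Plk1 were negative, at −0.95, −1.15 and −0.68, without passing. Incenp passed there as lower, at −1.25 (limma adjusted p = 0.014). The median of all genes was −0.53 with TMM and −0.18 with limma on log2(TPM + 1), and the median of the 8 genes was 0.29 and −0.82. TMM factors were 0.422 and 0.405 in MII and between 1.07 and 1.58 in the other libraries.

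The EpiC against ESC comparison asks what changes when the cells leave LIF and the inhibitors. Of the 8 genes, 1 was lower and 0 were higher, where 2.83% of all genes were called lower and 2.63% higher. Aurkc fell by 2.82 on the log2 scale, with SE 0.36 (edgeR adjusted p = 0.00364), a call kept in all 17 alternatives. The other 7 genes had log2 fold changes between −0.36 and 0.10 that did not pass, and their libraries overlapped between the groups in TPM. At an unadjusted p of 0.05, 0 of the genes were higher by edgeR, DESeq2 or limma. The share of all genes at that unadjusted p was not counted, so the 0 is not read as a trait of these genes. Beside the Aurkc fall, the 10 oocyte markers summed to 70.5 and 37.9 TPM in ESC and 11.3 and 4.72 TPM in EpiC. Ooep supplied most of the ESC sum, at 59.4 and 30.3 TPM, while H1foo was at most 0.0648 TPM and Oosp1 was listed at 0. Their part in the result was not tested.

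GV against ESC compares prophase oocytes with cycling pluripotent cells. Of the 8 genes, 5 were higher in GV and 1 lower, where 28.3% of all genes were called higher and 31.3% lower. Aurkc was higher by a log2 fold change of 5.43 ± 0.40 (edgeR adjusted p = 1.43e-05), Birc5 by 2.65 ± 0.33 (0.000182) and Aurka by 1.71 ± 0.38 (0.00419). Plk1 was higher by 1.15 ± 0.37 (0.0236) and Cdca8 by 0.97 ± 0.37 (0.0448), whereas Aurkb fell by 1.83, with SE 0.55 (0.0171). Incenp, at 0.55 (0.174), and Tpx2, at 0.63 (0.123), did not pass. The Cdca8 call was lost in 8 of 17 alternatives, among them each of the leave-outs of GV replicate 2 (0.57), ESC replicate 1 (1.06), ESC replicate 2 (0.87), EpiC replicate 1 (0.96) and EpiC replicate 2 (0.96). The Plk1 call was lost in 4 of 17, without GV replicate 2 (0.87) or ESC replicate 2 (0.88) and in limma on log2(TPM + 1) (0.90) and on log2(TPM + 0.1) (0.91). The Aurkb call was lost without GV replicate 1 (−1.23) or ESC replicate 1 (−1.75).

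MII against EpiC compares the matured oocyte with the differentiating cells. Of the 8 genes, 5 were higher in MII and 1 lower, where 28.5% of all genes were called higher and 39.6% lower. Aurkc differed most, by a log2 fold change of 10.68 ± 0.50 (edgeR adjusted p = 3.64e-06), and the ratio of its mean TPM was 653. Cdca8 was higher by 3.43 ± 0.40 (8.15e-05), Tpx2 by 2.87 ± 0.35 (0.000111), Aurka by 2.17 ± 0.38 (0.000939) and Plk1 by 1.43 ± 0.37 (0.00766). Aurkb fell by 1.55, with SE 0.54 (0.0291), while Birc5, at 0.64 (0.092), and Incenp, at 0.53 (0.182), did not pass. On the log2(TPM + 1) scale of limma, Aurka (0.66) and Plk1 (0.15) no longer passed, Birc5 turned to −0.55 without passing and Incenp passed as lower at −0.93. The Aurkb call was lost without GV replicate 1 (−1.37), MII replicate 1 (−0.75) or EpiC replicate 1 (−1.38), and the Plk1 call without EpiC replicate 2 (1.21). Birc5 passed as higher without GV replicate 1 (0.83) and with DESeq2 (0.83).

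**Figure D3:**
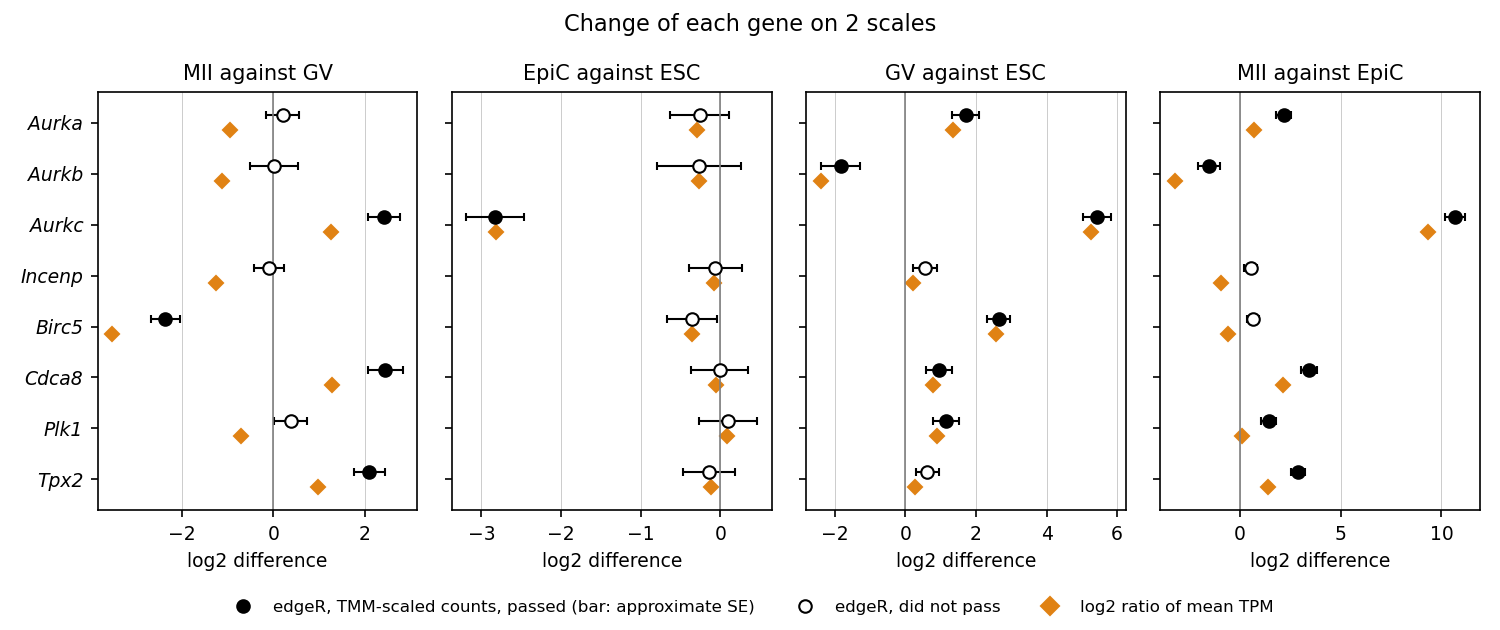
Log2 fold change of the 8 genes in each of the 4 comparisons from the edgeR fit (circles, filled where the adjusted p was under 0.05, with 1 approximate SE on each side) and log2 ratio of the mean TPM of the same groups (diamonds). The horizontal ranges differ between panels, the diamonds of MII against GV all lie left of their circles, and the Aurkc circle lies farthest from 0 in EpiC against ESC, GV against ESC and MII against EpiC.

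The change from GV to MII was also tested against the change from ESC to EpiC. It differed for 4 of the 8 genes, 3 with a more positive change in the oocytes and 1 with a more negative one, where 13.2% and 16.4% of all genes were called. The difference of the 2 log2 fold changes was 5.25 ± 0.50 for Aurkc (edgeR adjusted p = 0.000938), 2.47 ± 0.52 for Cdca8 (0.0076), 2.24 ± 0.47 for Tpx2 (0.00735) and −2.00 ± 0.44 for Birc5 (0.00925). The Cdca8 and Tpx2 differences, at 1.37 and 1.09, no longer passed in limma on log2(TPM + 1).

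The transcripts behind Aurkc had different shares in oocytes and cultured cells, most clearly for Aurkc-001. Aurkc-001, which encodes 315 codons, supplied 44.6% and 44.7% of the Aurkc TPM in GV and 43.7% and 45.0% in MII. In ESC it supplied 4.27% and 3.66%, and in EpiC 8.98% and 0%, on estimated counts of 17.9 and 38.1 in ESC and 4.90 and 0 in EpiC. The shorter coding forms Aurkc-002 and Aurkc-003 encode 276 codons each and start on either side of Aurkc-001, at bases 6995300 and 6995503 against 6995383. Aurkc-002 held 61.5% and 49.4% of the gene in ESC, 60.7% and 20.5% in EpiC and between 21.5% and 29.1% in oocytes, so that its EpiC libraries lay on both sides of the oocytes. Aurkc-003 held 30.9% and 42.2% in ESC, 30.3% and 69.3% in EpiC and between 16.9% and 25.2% in oocytes. The assignment of reads to these forms carries an error that the tables do not give, and the shares were not tested.

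Other genes kept one leading form. Aurkb-001 held between 55.3% and 66.4% of Aurkb in all 8 libraries, and Aurkb-002 held between 23.7% and 28.6% in oocytes and between 3.68% and 11.5% in cultured cells. Aurka-001 held between 84.1% and 97.1% of Aurka, while Aurka-002 and Aurka-201 have identical estimates and cannot be told apart. Birc5-001, of 140 codons, held 99.6% or more of Birc5 in oocytes and between 89.3% and 96.2% in cultured cells, and the rest was Birc5-002, of 121 codons. Tpx2-002 held 82.2% or more in oocytes and between 59.7% and 69.3% in cultured cells, although the coding Tpx2 forms all encode 745 codons. Cdca8-005, a processed transcript without a coding frame, held between 30.8% and 36.2% of Cdca8 in oocytes and between 11.5% and 17.9% in cultured cells, so that part of the Cdca8 level is noncoding. Plk1-003, a coding fragment with incomplete ends, held between 5.15% and 17.0% of Plk1 in oocytes and was listed at 0 in the 4 cultured libraries. The leading forms were Cdca8-001, with between 63.0% and 85.8% of Cdca8, and Plk1-001, with between 83.0% and 98.9% of Plk1. Lesser forms were Tpx2-001, with between 0.65% and 12.8% of Tpx2, a pair of other coding Tpx2 forms, with between 1.36% and 12.6% each, and the processed transcript Aurkb-008, with between 2.71% and 14.4%. Incenp has 1 transcript, Incenp-201, of 876 codons.

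Genes that place the passenger complex or act beside it were grouped in 4 lists with 66 genes, of which 65 were tested. Kif2b, a microtubule depolymerase, was the 1 gene not tested. The lists were chosen with results of these libraries known and lend no independent weight to any direction. Of 13 genes for centromere recruitment, 8 rose in MII against GV and 3 fell, with a median log2 fold change of 2.39, where 17.4% of all genes were called higher and 22.2% lower. In limma on log2(TPM + 1) the list read 6 higher and 4 lower, with a median of 1.05. That scale moved all genes towards lower calls, with 2408 of 25045 genes higher and 8164 lower. Sgol2a, a shugoshin that protects centromeric cohesion, rose with 4.15 ± 0.47, from 8.64 and 3.68 TPM to 56.1 and 41.0 TPM. Bub1b and Mad2l1, of the spindle checkpoint, rose with 2.98 ± 0.47 and 2.92 ± 0.41. The 2 kinases that write the histone marks that recruit the complex both fell, Bub1 by 3.35 (90.0 and 27.9 TPM to 2.30 and 2.65 TPM) and Gsg2, haspin, by 1.90 (71.9 and 64.5 TPM to 8.53 and 7.83 TPM). The checkpoint kinase Ttk fell by 2.26.

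Of 12 genes of the central spindle and cytokinesis, 10 rose in MII and 0 fell, with a median of 2.65, where 17.4% of all genes were called higher and 22.2% lower. At an unadjusted p of 0.05 the edgeR fit and DESeq2 also gave 0 that fell, but the share of all genes at that p was not counted. However, 1 gene was called lower with a replicate block and 1 without the count filter. Limma on log2(TPM + 1) called 7 higher and 2 lower, where it called 2408 of all 25045 genes higher and 8164 lower. Cep55, which builds the abscission site, rose with 4.06 ± 0.41, from 52.3 and 32.4 TPM to 356 and 280 TPM. The kinesin Kif20b rose with 3.18 ± 0.64 and Cit, citron kinase, with 3.08 ± 0.35. In EpiC against ESC Cep55 was the 1 gene of this list called, and fell by 2.03, with SE 0.38 (edgeR adjusted p = 0.0167). That call was lost without ESC replicate 1 (−1.82), EpiC replicate 1 (−2.13) or EpiC replicate 2 (−1.96), and on the compared groups alone (−2.03).

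Of 20 spindle pole genes and cofactors of Aurora A or Polo kinases, 7 rose in MII and 5 fell. Of all genes, 17.4% were called higher and 22.2% lower, so that the share that fell was near that of all genes. Tacc3, a centrosomal substrate of Aurora A, fell by 5.22, from 967 and 1084 TPM to 3.20 and 19.9 TPM, while its partner Ckap5 rose with 3.62 ± 0.55. Cdc25c, a phosphatase that activates the mitotic kinase Cdk1, fell by 4.36, and its relative Cdc25b fell by 3.05. Fbxo43, the oocyte inhibitor of the anaphase-promoting complex, rose with 3.65 ± 0.50, and Plk4, the centriole kinase, with 3.59 ± 0.43. With limma on log2(TPM + 1) the list read 4 higher and 9 lower, where 2408 of all 25045 genes were higher and 8164 lower.

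Of 20 phosphatase genes and genes that destroy the kinases, 10 rose in MII and 4 fell, where 17.4% of all genes were called higher and 22.2% lower. The share that fell was near that of all genes. Klhl9, an adaptor of the ligase that takes Aurora B off chromosomes, rose with 3.86 ± 0.34, the phosphatase subunit Ppp1cb with 3.75 ± 0.57 and the activator Cdc20 with 2.75 ± 0.47. Fzr1, the other activator of the anaphase-promoting complex, which targets Aurora A for destruction, fell by 3.31, from 87.3 and 166 TPM to 2.22 and 9.43 TPM. Fbxl2 fell by 2.14 and the phosphatase subunit Ppp2ca by 1.54. With limma on log2(TPM + 1) the list read 5 higher and 5 lower, where 2408 of all 25045 genes were higher and 8164 lower.

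In EpiC against ESC the same 4 lists gave 1 call among 65 genes, that of Cep55, where 2.63% of all genes were called higher and 2.83% lower. So few calls are not a trait of these lists. At an unadjusted p of 0.05, edgeR gave 0 higher and 1 lower in the centromere list, 2 and 0 in the spindle pole list, 0 and 2 in the central spindle list and 2 and 2 in the phosphatase list. DESeq2 gave 0 and 0, 3 and 0, 0 and 1, and 2 and 1, and the share of all genes at that unadjusted p was not counted. Limma on log2(TPM + 1) called 2 spindle pole genes higher after adjustment, where it called 1287 of all 25045 genes higher and 1538 lower. In GV against ESC, 7 centromere genes were higher and 3 lower, 9 and 5 of the spindle pole list, 4 and 1 of the central spindle list, and 3 and 6 of the phosphatase list, where 28.3% of all genes were called higher and 31.3% lower, so that several of these counts lie near or below that share. Counts of the centromere, phosphatase and central spindle lists changed when some single libraries were left out, as did the counts over all genes. Dsn1, of the kinetochore, was higher by 3.18 ± 0.35 and Fbxo43 by 9.36 ± 0.66, while the histone variant gene H2afz fell by 4.81 and Ajuba, an activator of Aurora A, by 7.94. In MII against EpiC, 9 centromere genes were higher and 2 lower, 8 and 8 of the spindle pole list, 10 and 0 of the central spindle list, and 10 and 6 of the phosphatase list, where 28.5% of all genes were called higher and 39.6% lower. The 0 also held at an unadjusted p of 0.05 in the edgeR fit and DESeq2, where the share of all genes was again not counted. It was 1 with a replicate block and on the compared groups alone. Lower genes of the phosphatase list numbered 3 with DESeq2 or relative log expression, which called 9270 and 9695 of all 25045 genes lower. Fewer genes of the phosphatase and centromere lists were lower when some single libraries were left out, and fewer of all genes were too. Kif23, a central spindle kinesin, was higher by 5.41 ± 0.47 and Prc1, which bundles its microtubules, by 4.86 ± 0.41, whereas Hmmr, a spindle pole protein, fell by 5.20. With limma on log2(TPM + 1) these counts for MII against EpiC were 4 and 3, 6 and 12, 9 and 1, and 2 and 7. On that scale 4703 of all 25045 genes were higher and 11450 lower.

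**Figure D4:**
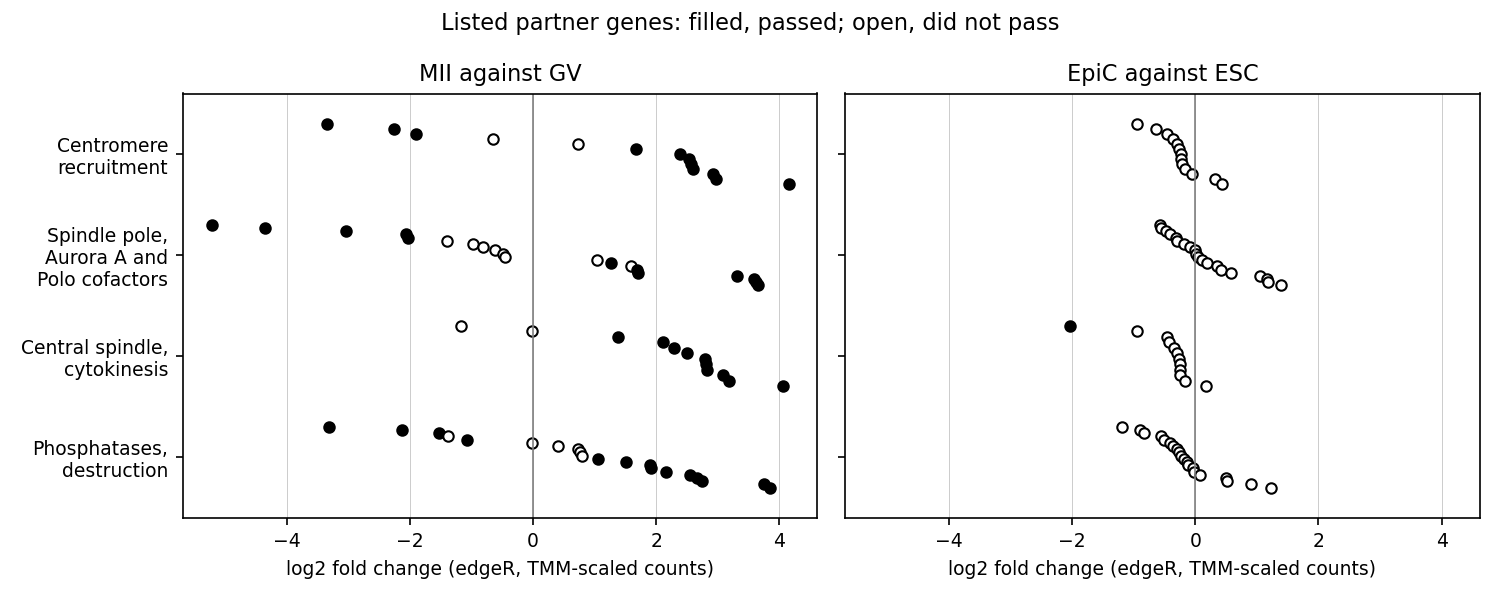
Log2 fold change from the edgeR fit for each tested gene of the 4 partner lists, with MII against GV on the left, EpiC against ESC on the right, and filled points where the adjusted p was under 0.05. On the left all 10 called genes of the central spindle list lie above 0 and Tacc3, at −5.22, lies lowest of all, and on the right the 1 filled point is Cep55, at −2.03.

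Some other genes followed the kinases across the libraries. Likeness was the root mean square difference of log2(TPM + 1), each gene centred on its own mean over the 8 libraries, among 8177 coding genes with a mean of at least 10 TPM. For Aurka these were Ube2s (0.166), Mrpl24 (0.183) and Rnf220 (0.190). For Aurkb they were Ube2r2 (0.180), Dpf2 (0.264) and Slc38a10 (0.265). For Aurkc they were Srgn (0.281), Lmo1 (0.435) and Tesc (0.484). Srgn measured 172 and 140 TPM in GV, 381 and 297 TPM in MII, 4.32 and 3.604 TPM in ESC and 0.152 and 0.347 TPM in EpiC, in the same order of groups as Aurkc. Ube2s is a ubiquitin-conjugating enzyme of the anaphase-promoting complex and is also in the phosphatase and destruction list.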

How the data were processed

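Libraries were stranded and paired-end, from total RNA, per the labels' protocols, which do not mention poly(A) selection. The authors deposited estimated counts and TPM for each transcript, made with kallisto 0.43 on mm10 per the submitters' processing notes. Here both were summed per gene by the gene ID in the tables, and the members were then picked by gene symbol. Positions and coding lengths came from GENCODE M21 on GRCm38. RefSeq promoter windows were used for 4 genes, and 1 further window is not reported here.

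Rounded counts were tested with edgeR 4.0.16 in R 4.3.3 (filterByExpr, TMM, robust quasi-likelihood fit of all 8 libraries, 4 residual degrees of freedom), with Benjamini-Hochberg adjustment over 25045 genes at a threshold of 0.05. Tests are two-sided. The SE is approximate and was obtained by dividing the size of the log2 fold change by the root of F. The fit was tested on simulated counts in which few genes were changed, in MII only. That run therefore cannot test how the real MII libraries were scaled. Alternatives used DESeq2 1.42.0, limma 3.58.1 on log2(TPM + 1) or log2(TPM + 0.1), relative log expression scaling, no filter, a transcript length offset, protein-coding genes, the compared groups alone, a replicate block, and leaving out each library.

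The text names all 8 members, up to 3 called genes per direction and partner list, the 3 most similar genes per kinase, and transcripts of at least 1 TPM and 10% of their gene in a group; Birc5-002, Aurka-002 and Aurka-201 were added after their values were seen. Members and lists were chosen with earlier results of these data known. Errors cover counting and the spread between libraries, and the tables give none for how reads were assigned to transcripts.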

Additional observations from a re-analysis of the deposited data

Results flagged for a closer look

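For 4 genes the change from GV to MII differed from the change from ESC to EpiC, by a test of the difference itself (edgeR, all 8 libraries, Benjamini-Hochberg over 25045 genes). The difference of log2 fold changes was 5.25 for Aurkc (adjusted p = 0.000938), because Aurkc was higher in MII than in GV in both libraries of each and lower in EpiC than in ESC. It was 2.47 for Cdca8 (adjusted p = 0.0076) and 2.24 for Tpx2 (adjusted p = 0.00735), which were higher in MII and did not pass in EpiC. It was −2.00 for Birc5 (adjusted p = 0.00925), which was lower in MII and did not pass in EpiC.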

How the results depend on the processing

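The smallest estimated counts were 65.1 and 127 for Aurkc in EpiC and 220 for Aurkb in MII replicate 1, and 2 libraries a group limit every test. Aurkc kept its call in all 4 comparisons under all 17 alternatives, as did Birc5, Cdca8 and Tpx2 in MII against GV. With limma on log2(TPM + 1) and on log2(TPM + 0.1), 2 of the 8 genes were lower in MII against GV in place of 1. In both, 3 were higher in GV against ESC in place of 5, 3 were higher and 2 lower in MII against EpiC in place of 5 and 1, and 1 was higher in the test of the difference in place of 3. The limma counts over all genes follow below. In GV against ESC they were 6889 higher and 8224 lower on log2(TPM + 1) and 6896 and 9021 on log2(TPM + 0.1). Leaving out 1 library gave 3 to 5 higher and 0 to 1 lower genes in GV against ESC, and 4 to 6 higher and 0 to 1 lower in MII against EpiC.

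Changes of sign concerned log2 fold changes that did not pass with edgeR and TMM. For MII against GV, limma with a pseudocount of 1 and of 0.1 gave −0.95 and −0.96 for Aurka, −1.15 and −1.29 for Aurkb, and −0.68 and −0.69 for Plk1. Incenp was 0.12 with relative log expression and 0.12 with DESeq2, Aurka was −0.011 and Aurkb −0.21 without a filter, and Aurkb was −0.047 on protein-coding genes. For EpiC against ESC, Cdca8 was 0.0039 on protein-coding genes. For MII against EpiC, the limma values were −0.93 and −0.95 for Incenp, which passed as lower in both, and −0.55 and −0.55 for Birc5. For the difference of the changes they were −0.67 and −0.67 for Aurka, −0.85 and −0.99 for Aurkb, and −0.75 and −0.76 for Plk1, and Incenp was 0.18 with relative log expression and with DESeq2. Over the leave-outs, MII against GV ran from −0.23 to 0.54 for Aurka, −1.20 to 0.51 for Aurkb and −0.49 to 0.050 for Incenp. EpiC against ESC ran from −0.20 to 0.060 for Incenp, −0.12 to 0.079 for Cdca8 and −0.17 to 0.40 for Plk1. The difference ran from −0.91 to 0.80 for Aurkb, −0.41 to 0.14 for Incenp and −0.063 to 0.57 for Plk1. Their cause was not tested.

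Libraries with the same replicate number deviated together between GV and MII (correlation 0.31 over 25045 genes) and between ESC and EpiC (0.71) but not across these pairs (−0.02 to 0.01). No label says that the number marks a shared animal, culture or day, and the block was kept as an alternative. A replicate block gave 4871 higher and 6244 lower genes in MII against GV, and 983 and 1033 in place of 659 and 708 in EpiC against ESC. It changed no call of the 8 genes, and Aurkb was −0.064 in MII against GV.

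Over all genes, 43.9% of calls in MII against GV were higher (4357 of them, with 5572 lower), but 22.8% (2408 and 8164) with limma on log2(TPM + 1) and 20% (2275 and 9107) on log2(TPM + 0.1). In MII against EpiC the share was 41.8% (7128 and 9908), and 29.1% (4703 and 11450) and 28.1% (5054 and 12948) in limma. In the difference it was 44.6% (3315 and 4116), and 25.3% (2576 and 7600) and 21.5% (2174 and 7937) in limma, while leaving out ESC replicate 1 gave 2480 and 2452. EpiC against ESC gave 1519 and 1416 genes with DESeq2, 1303 and 1277 without a filter, 1287 and 1538 and 1151 and 1279 in limma, and 355 and 478 on the compared groups alone. Without ESC replicate 1 it gave 135 and 274, without ESC replicate 2 317 and 436, without EpiC replicate 1 419 and 339, and without EpiC replicate 2 456 and 371. Without GV replicate 1, 4922 genes were lower in GV against ESC in place of 7834.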
